A study of Mus musculus with 5 samples.

Results

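Glycolysis and hypoxia response genes were examined in 6DT1 mouse mammary carcinoma cells with and without stable knockdown of *Arid4b*. The group held 33 listed genes: 2 glucose transporters, 15 enzymes and regulators of glycolysis, 4 genes of pyruvate and lactate handling, 10 other hypoxia targets and 2 HIF alpha subunits. They were taken by symbol from the platform annotation, using probe sets with 1 symbol and, for each gene, the probe set of highest mean over the arrays. Of the 33 genes, 30 were measured this way, among 19938 genes in all. *Gpi1* and *Eno1* had no such probe set and *Gapdh* was found only on 25 probe sets shared with other symbols, so these 3 are not analysed here.

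RNA of each line was hybridised to 1 Affymetrix Mouse Gene 1.0 ST array, 5 in all, to find genes that differ with the level of *Arid4b*, which encodes a subunit of the mSIN3A histone deacetylase complex. The *Arid4b* knockdown cohort held 2 lines, H3 and H4, which carried lentiviral *Arid4b* hairpins 3 and 4. The control cohort held 3 lines: H5, which carried *Arid4b* hairpin 5, a line with a scrambled hairpin, and untransduced 6DT1 cells. The transduced lines were pooled clones selected with 10 µg/ml puromycin, and the untransduced cells were the only line without this selection. Relative ARID4B densitometry in the labels was 0.19 in H3 and 0.15 in H4, against 1.02 for H5, 1.00 for the scrambled control and 1.09 for untransduced cells. Each hairpin is represented by a single line, so that hairpin and line cannot be told apart. The labels name no hypoxia treatment. The paper gives the culture medium but not the oxygen level or the cell density at RNA harvest.

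Glycolysis splits glucose into pyruvate with a net gain of ATP, and tumour cells often run it at a high rate and export the product as lactate. When oxygen is low, HIF alpha subunits escape hydroxylation by the EGLN prolyl hydroxylases and the degradation that follows, pair with ARNT, and bind DNA at the core motifs ACGTG and GCGTG. HIF targets include most glycolytic enzymes, glucose and lactate transporters, and genes of blood vessel growth, mitophagy and pH control, as well as *Egln1* and *Egln3* themselves.

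*Arid4b* mRNA, the targeted gene, was 6.88 in H3 and 7.35 in H4, against 8.24 for H5, 8.34 for the scrambled control and 8.36 for untransduced cells, in log2 expression values (log2 fold change -1.20 ± 0.15 SE, limma adjusted p = 0.217). The array median was 6.35 for H3 and 6.24 for H4, against 6.24 to 6.25 for control lines, and H3 was the narrowest array, with an SD over probe sets of 2.25, followed by H4 at 2.29 and the control lines at 2.29 to 2.30. The SD over genes of the log2 difference was 0.263 between H3 and H4 and 0.130 to 0.205 between control lines. Of the mammary epithelial markers, *Krt8* and *Krt18* were near the top of all genes (control means 12.18 and 11.67), whereas *Epcam* (5.61) and *Cdh1* (6.06) were at the 29.2 and 38.2 percentiles. None of the 14 mammary epithelial or 8 fibroblast and endothelial markers passed an unadjusted p of 0.05 in limma, the threshold of the study. Of 7 leukocyte markers, 2 were higher in knockdown lines (28.6%): *Cd68* (0.95) and *Csf1r* (0.20, at the 23.1 percentile of all genes). Over all genes, 4.34% were higher and 7.61% lower by the same test. The log2 of the summed leukocyte marker levels was 11.14 to 11.16 in knockdown lines and 10.27 to 10.39 in control lines, of which *Cd68* made up most, while the defining marker *Ptprc* was at the 20.1 percentile of all genes. The same sums were 12.88 to 13.09 and 13.07 to 13.15 for mammary epithelial markers, and 9.53 to 9.67 and 9.39 to 9.47 for fibroblast and endothelial markers, in knockdown and control lines. The part of these markers in the results was not tested. Since labels do not say that lines are repeat cultures, p-values measure only the spread between these 5 arrays, and in RNA from whole cultures fewer expressing cells and less RNA per cell cannot be told apart.

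The upstream sequences of 5 genes are shown first, because they carry the HIF core motif: *Egln1*, with the lowest adjusted p of the group, its relative *Egln3*, which went the other way, *Bnip3*, with a wide spread between control lines, and *Ldha* and *Pgk1*, which fell and hold several matches. *Pfkfb3*, *Slc2a1* and others also hold matches and are not printed. They run 5′ to 3′ on the gene's strand over the 250 bases before the annotated start in RefSeq, assembly GRCm38.p6, with ACGTG on either strand in capitals (CACGT where it lies on the opposite strand, and CACGTG where both strands match). The positions are chr8:124949255-124949504 on the minus strand for *Egln1*, chr12:54203875-54204124 on the minus strand for *Egln3*, chr7:138909507-138909756 on the minus strand for *Bnip3*, chr7:46845554-46845803 on the plus strand for *Ldha* and chrX:106186850-106187099 on the plus strand for *Pgk1*.
Egln1 promoter: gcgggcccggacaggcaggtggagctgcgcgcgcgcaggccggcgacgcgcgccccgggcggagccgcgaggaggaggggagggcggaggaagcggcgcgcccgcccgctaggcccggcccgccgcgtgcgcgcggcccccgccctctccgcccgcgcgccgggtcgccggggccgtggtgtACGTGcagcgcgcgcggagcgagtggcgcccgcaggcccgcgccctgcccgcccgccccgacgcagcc
Egln3 promoter: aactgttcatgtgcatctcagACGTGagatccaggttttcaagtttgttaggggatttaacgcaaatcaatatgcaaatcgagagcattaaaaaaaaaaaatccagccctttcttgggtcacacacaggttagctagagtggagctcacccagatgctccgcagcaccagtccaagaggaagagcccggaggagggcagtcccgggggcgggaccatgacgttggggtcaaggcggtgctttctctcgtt
Bnip3 promoter: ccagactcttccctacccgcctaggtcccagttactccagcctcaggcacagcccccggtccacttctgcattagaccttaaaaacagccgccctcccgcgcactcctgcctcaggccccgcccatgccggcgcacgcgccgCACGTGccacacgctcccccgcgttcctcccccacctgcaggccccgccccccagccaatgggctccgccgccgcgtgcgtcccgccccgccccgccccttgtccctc
Ldha promoter: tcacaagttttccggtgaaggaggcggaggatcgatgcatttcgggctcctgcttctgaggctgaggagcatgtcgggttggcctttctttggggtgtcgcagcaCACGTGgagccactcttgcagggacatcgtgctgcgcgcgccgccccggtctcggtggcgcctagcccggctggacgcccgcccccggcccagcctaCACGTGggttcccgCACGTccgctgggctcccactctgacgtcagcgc
Pgk1 promoter: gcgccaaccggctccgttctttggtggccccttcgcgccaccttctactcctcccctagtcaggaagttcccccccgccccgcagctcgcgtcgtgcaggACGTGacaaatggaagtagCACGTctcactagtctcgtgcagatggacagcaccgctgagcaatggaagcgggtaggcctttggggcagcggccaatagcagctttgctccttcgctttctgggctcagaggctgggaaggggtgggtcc

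The *Egln1* window held 1 ACGTG match, 68 bases before the start, in a sequence with 51 CG dinucleotides. In *Egln3* the only match lay 229 bases before the start, among 10 CG dinucleotides. *Bnip3* had 1 palindromic CACGTG, which counts on both strands and overlaps itself, and *Ldha* had 2 of these and a CACGT 34 bases before the start, whereas the window of a second *Ldha* start (chr7:46846832-46847081) held none. *Pgk1* had 1 match on each strand, 150 and 131 bases before the start. RefSeq windows were found for 29 of the 33 genes (42 windows), and those of *Slc2a3*, *Bnip3l*, *Ndrg1* and *Epas1* were not analysed here. ACGTG was present in 19 of these 42 windows (45.2%), against 16.6% of 32851 windows of the same length over all genes, and GCGTG in 54.8% against 28.2%. The windows of the group also held more CG dinucleotides, with a median of 13.5 against 6.0, so that the motif shares are given as a description only. A match says that these letters are present and not that a factor is bound there. The windows of *Tpi1*, which also fell in knockdown lines, and of *Eno2* and *Gpi1* held neither motif. That of *Pfkl*, which fell as well, held 0 ACGTG and 1 GCGTG.

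Across the 30 measured genes, 3 were higher in knockdown lines (10.0%) and 7 were lower (23.3%) at an unadjusted p of 0.05 in limma, and 20 did not pass. Over all 19938 genes, 4.34% were higher and 7.61% lower by the same test. This background is not matched for level: the median of mean log2 values was 10.11 for the 30 genes and 6.78 for all genes. Without the dimmest genes, 603 of 13292 genes were higher and 1503 lower by limma, with 2 higher and 6 lower in the group. Shares against genes of like level were not tested, and later comparisons with these background shares carry the same limit. None of the 30 passed after Benjamini-Hochberg adjustment over all genes, where the smallest adjusted p was 0.194 for *Egln1* and 0.147 over all genes. H3 and H4 both exceeded every control line for 3 genes and were both below them for 10, against 13.9% and 13.5% of all genes, and 17 overlapped. The median log2 fold change was -0.035 over the 30 genes and 0.033 over all genes. By line, the median deviation of the 30 genes from the control mean was -0.029 for H3 and -0.045 for H4. Among control lines it was -0.045 for H5, equal to H4, 0.028 for the scrambled control and 0.0 for untransduced cells. These shares describe a list that was chosen with earlier results of the data known, and no p is given for the list.

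**Figure D1:**
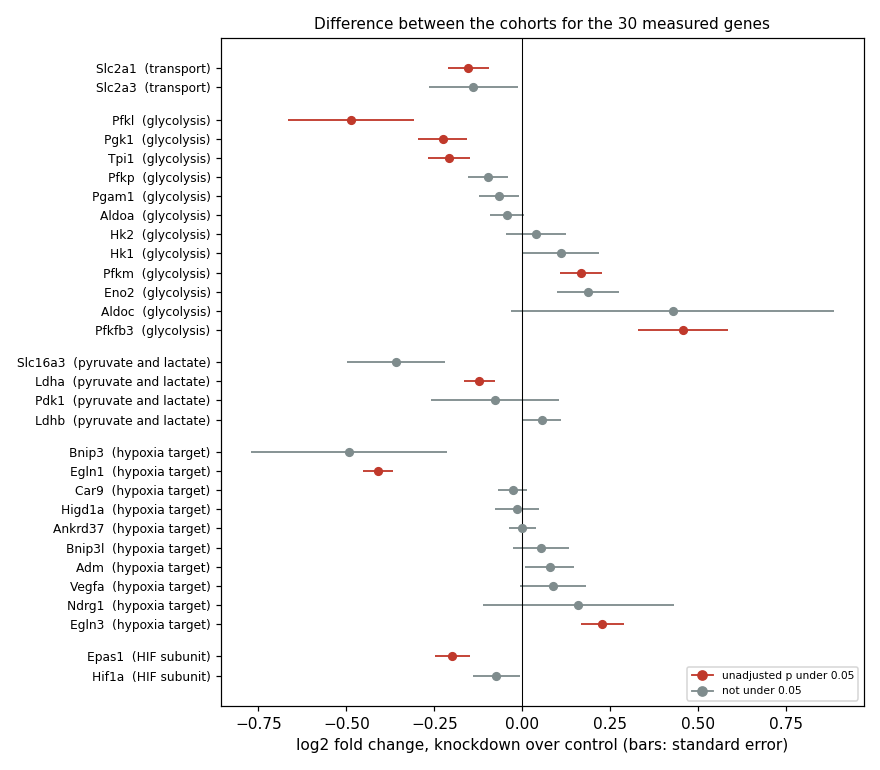
Log2 fold change of knockdown over control lines for the 30 measured genes on the horizontal axis, grouped by role, with bars for the limma standard error. Red points passed an unadjusted p of 0.05: 7 lie left of 0 and 3 right of it, *Pfkfb3* is farthest right at 0.46, and the bar of *Aldoc* is the widest at 0.46 to each side.

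The contrast of glycolytic enzymes with the other hypoxia targets is given by counts and medians. Among 12 measured glycolytic enzymes and regulators, 2 rose (16.7%), 3 fell (25.0%) and 7 did not pass, against 4.34% and 7.61% of all genes, with a median log2 fold change of -0.003. Among the 10 other hypoxia targets, 1 rose (10.0%), 1 fell (10.0%) and 8 did not pass, with a median of 0.026. The order of these medians turned with another quantile normalization (0.023 for enzymes and -0.005 for targets), without H3 (0.053 and -0.006) and without untransduced cells (0.01 and 0.0). The pyruvate and lactate genes had a median of -0.10 with 1 of 4 lower, the transporters -0.146 with 1 of 2 lower, and the HIF alpha subunits -0.136 with 1 of 2 lower. Taking transporters, enzymes and lactate genes as one glucose side, 2 of 18 rose and 5 fell (median -0.071). The median deviation of these 18 from the control mean was -0.069 for H3 and -0.06 for H4. Control lines gave -0.047 for H5, 0.042 for the scrambled control and 0.016 for untransduced cells. The difference between the enzyme and target groups was not tested. Members that rose and fell stood side by side within each of them, and the ranges were -0.49 to 0.46 for the enzymes and -0.49 to 0.23 for the targets.

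Glucose enters cells through facilitative carriers. *Slc2a1*, the basal importer GLUT1, measured 12.53 in H3 and 12.42 in H4, against 12.63 for H5, 12.58 for the scrambled control and 12.67 for untransduced cells. Both knockdown lines were below every control line, by a small margin in H3 (log2 fold change -0.15 ± 0.06, fold 0.899, adjusted p = 0.418). *Slc2a3*, the high-affinity carrier GLUT3, was 6.38 and 6.13 in H3 and H4, against 6.30, 6.31 and 6.57 in H5, the scrambled control and untransduced cells. The cohorts overlapped (-0.14 ± 0.13). The *Slc2a1* difference did not pass without H4 (-0.10), without H5 (-0.15), without the scrambled control (-0.18) or without untransduced cells (-0.13). It also did not pass unmoderated, with another quantile normalization or without the dimmest genes, and passed under 4 of 11 alternatives.

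Hexokinases trap glucose in the cell as its phosphate. *Hk1* was 11.99 in H3 and 12.11 in H4, against 11.89 for H5, 12.12 for the scrambled control and 11.81 for untransduced cells, and *Hk2*, the form most often induced in tumours, was 10.10 and 10.33 against 10.16, 10.13 and 10.24 in the same order of lines. Neither separated the cohorts (0.11 ± 0.11 for *Hk1* and 0.04 ± 0.09 for *Hk2*). A second *Hk1* probe set gave 11.41 in H3 and 11.27 in H4, against 11.29 in every control line (0.05), and did not separate them either.

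Phosphofructokinase, the committed step of the pathway, is built from liver, muscle and platelet type subunits, and 2 of its genes moved in opposite directions. *Pfkl*, the liver type, was 10.20 in H3 and 10.74 in H4, against 10.83 for H5, 10.98 for the scrambled control and 11.05 for untransduced cells. H3 was far below all other lines and H4 only just below H5 (-0.49 ± 0.18, fold 0.714, adjusted p = 0.412). *Pfkm*, the muscle type, was 11.08 and 11.05 in H3 and H4, against 10.92, 10.96 and 10.82 in H5, the scrambled control and untransduced cells, with H3 and H4 both above all control lines (0.17 ± 0.06, fold 1.12, adjusted p = 0.405). *Pfkp*, the platelet type, measured 11.47 and 11.40 in the knockdown lines and 11.50, 11.60 and 11.49 in the same control lines, and did not pass (-0.10 ± 0.06). The *Pfkl* value was -0.22 without H3 and did not pass, nor did it without H5 (-0.55), the scrambled control (-0.47) or untransduced cells (-0.44). *Pfkm* did not pass without H3 (0.15), H4 (0.18), H5 (0.18) or untransduced cells (0.12), nor with array medians subtracted (0.12). It also did not pass unmoderated, with trend and robust options or without the dimmest genes, and passed under 3 of 11 alternatives.

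*Pfkfb3* makes the sugar bisphosphate that activates phosphofructokinase, and it had the highest log2 fold change of the 30 genes. It was 7.76 in H3 and 8.04 in H4, against 7.32 for H5, 7.60 for the scrambled control and 7.41 for untransduced cells. Both knockdown lines were above all control lines, with H4 the highest (0.46 ± 0.13, fold 1.37, adjusted p = 0.341). The call was lost without H4 (0.32), without H5 (0.39) and without untransduced cells (0.44).

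The aldolases split the sugar bisphosphate into triose phosphates. *Aldoa*, the main form in most cells, was 12.31 in H3 and 12.26 in H4, against 12.28 for H5, 12.34 for the scrambled control and 12.37 for untransduced cells, and the cohorts overlapped (-0.04 ± 0.05). *Aldoc*, the brain type, which is also hypoxia inducible, varied far more: 10.41 in H3 and 10.97 in H4, against 9.96 for H5, 11.06 for the scrambled control and 9.76 for untransduced cells. The scrambled control was the highest of the 5 lines and the other control lines were the lowest, so that the log2 fold change of 0.43 carried an SE of 0.46 (adjusted p = 0.63).

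*Tpi1*, which interconverts the triose phosphates, was 11.76 in H3 and 11.64 in H4, against 11.87 for H5, 11.97 for the scrambled control and 11.89 for untransduced cells. It fell in both knockdown lines (-0.21 ± 0.06, fold 0.865, adjusted p = 0.344). *Pgk1*, the enzyme of the first ATP-forming step, was 11.91 and 11.81 in H3 and H4, against 12.02, 12.07 and 12.18 in H5, the scrambled control and untransduced cells (-0.23 ± 0.07, fold 0.855, adjusted p = 0.353). All 3 probe sets annotated to *Pgk1* gave the same difference of -0.23, and 2 of them held the same values at 2 decimals in every line. Whether these probe sets also detect near-identical copies was not tested. *Tpi1* did not pass without H4 (-0.15) or without the scrambled control (-0.18), and *Pgk1* did not pass without H3 (-0.27), H4 (-0.18) or the scrambled control (-0.24).

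The later enzymes measured in the group, *Pgam1* and *Eno2*, did not pass. Outside the group, *Pkm*, the pyruvate kinase of the last step, and *Eno3*, another enolase, did not pass either. In each of them H3 and H4 lay below every control line (-0.15 ± 0.08 for *Pkm* and -0.17 ± 0.08 for *Eno3*). At 2 decimals, *Pkm* was 12.07 in both H3 and the scrambled control. *Pgam1*, phosphoglycerate mutase, was 11.48 in H3 and 11.51 in H4, against 11.49 for H5, 11.57 for the scrambled control and 11.62 for untransduced cells (-0.07 ± 0.06). *Eno2*, the neuronal type of enolase, was 8.01 and 8.25 in H3 and H4, against 7.90, 8.01 and 7.92 in H5, the scrambled control and untransduced cells. H4 was the highest line and H3 equalled the scrambled control (0.19 ± 0.09). *Eno2* passed with another quantile normalization (0.25) and without H3 (0.30), and was 0.07 without H4.

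Pyruvate is turned into lactate by lactate dehydrogenase, and *Ldha* codes for its muscle type subunit. The values of *Ldha* were 12.67 in H3 and 12.63 in H4, against 12.75 for H5, 12.76 for the scrambled control and 12.81 for untransduced cells. The fall was small and the lines within each cohort lay close together (-0.12 ± 0.04, fold 0.918, adjusted p = 0.401). *Slc16a3*, the lactate exporter MCT4, was 9.96 and 9.68 in H3 and H4, against 10.01, 10.35 and 10.18 in H5, the scrambled control and untransduced cells. Its difference of -0.36 ± 0.14 (fold 0.779) was larger than that of *Ldha* but just missed the threshold, with an adjusted p of 0.426, and H3 was close to H5. The heart type subunit *Ldhb* measured 6.01 and 5.90 in knockdown lines and 5.91, 5.92 and 5.86 in control lines (0.06 ± 0.05). *Pdk1*, the kinase that inhibits pyruvate dehydrogenase, was 8.56 in H3 and 9.01 in H4, against 8.65 for H5, 9.02 for the scrambled control and 8.92 for untransduced cells, so that H3 and H4 differed by 0.46, against a range of 0.36 over control lines. *Ldha* did not pass without H4 (-0.10), H5 (-0.13), the scrambled control (-0.13) or untransduced cells (-0.10), whereas *Slc16a3* passed without H5 (-0.44), with array medians subtracted (-0.41), with trend and robust options and without the dimmest genes (-0.36 in both).

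**Figure D2:**
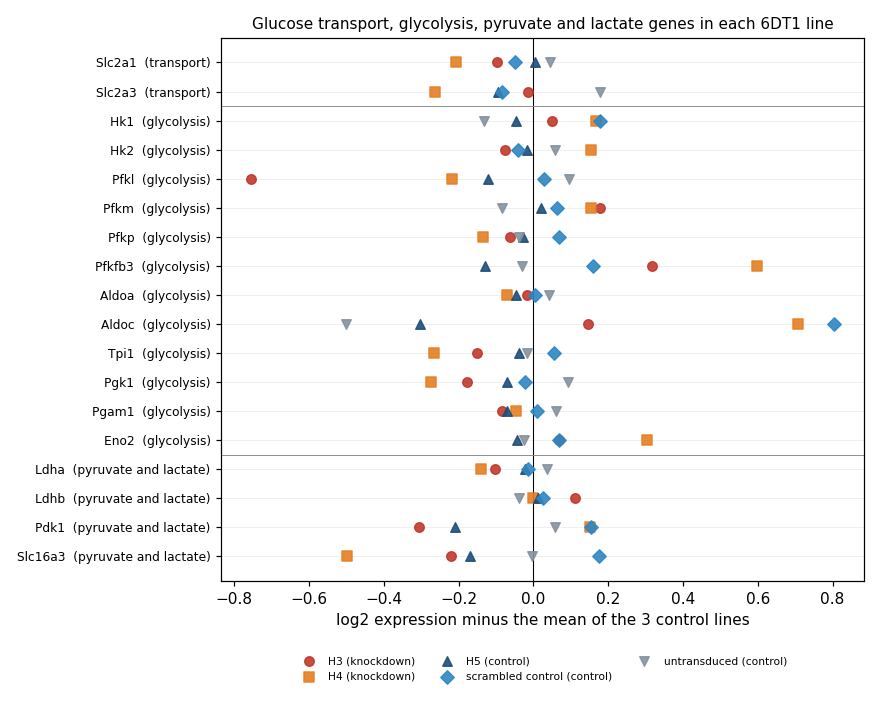
Log2 expression of each line minus the mean of the 3 control lines for the 18 measured genes of glucose transport, glycolysis, pyruvate and lactate, 1 symbol per line and gene (red and orange, knockdown lines; blue and grey, control lines). For *Tpi1*, *Pgk1* and *Ldha* both knockdown lines lie left of every control line, for *Pfkfb3* both lie right of them, and for *Aldoc* the scrambled control is the rightmost point.

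The glucose-side genes that fell had bright probe sets, and bright genes as a whole were slightly lower in knockdown lines. Of all 19938 genes, 1985 had a mean log2 value over 10 across the 5 arrays, and their median log2 fold change was -0.061, with a median deviation from the control mean of -0.081 in H3 and -0.032 in H4. The 17 group members above this level had a median of -0.066, at -0.077 in H3 and -0.05 in H4. A control line, H5, lay at -0.047 for these members, close to H4. The scrambled control lay at 0.056 and untransduced cells lay at -0.005, so the lean of H4 was not particular to knockdown lines. *Slc2a1*, *Pfkl*, *Tpi1*, *Pgk1* and *Ldha* all belong to these 17. H3 had the narrowest array and the lower median of bright genes. Relative to the control mean, *Slc2a1* (-0.10 in H3, -0.21 in H4) and *Tpi1* (-0.15, -0.27) were lower in H4. So were *Pgk1* (-0.18, -0.27) and *Ldha* (-0.10, -0.14), whereas *Pfkl* was lower in H3 (-0.76, -0.22). The part of the array spread in the falls was not tested. With another quantile normalization, 4 of these 5 genes passed and *Slc2a1* did not (-0.16).

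Among the other hypoxia targets the clearest difference was in *Egln1*, which encodes the principal prolyl hydroxylase that marks HIF alpha subunits for degradation in normal oxygen. It measured 8.55 in H3 and 8.54 in H4, against 8.99 for H5, 8.96 for the scrambled control and 8.92 for untransduced cells. The lines of a cohort differed from each other by at most 0.07, and the cohorts by a log2 fold change of -0.41 ± 0.04 (fold 0.753, adjusted p = 0.194). *Egln1* had the lowest adjusted p of the 30 genes and passed the unadjusted threshold under all 11 alternatives that were run, with log2 fold changes of -0.45 to -0.33. *Egln3*, a related hydroxylase that HIF induces strongly, went the other way, at 10.86 in H3 and 10.89 in H4, against 10.63 for H5, 10.74 for the scrambled control and 10.59 for untransduced cells. Both knockdown lines were above all control lines (0.23 ± 0.06, fold 1.17, adjusted p = 0.33). The *Egln3* call was lost without H3 (0.24), without H4 (0.21), without H5 (0.22), and with array medians subtracted (0.18).

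*Bnip3* and *Bnip3l* encode receptors that mark mitochondria for autophagy. *Bnip3* was 9.15 in H3 and 8.96 in H4, against 9.28 for H5, 10.06 for the scrambled control and 9.29 for untransduced cells. The knockdown lines were below all control lines, but the scrambled control stood apart from the other control lines by 0.78, and the log2 fold change of -0.49 had an SE of 0.28 (adjusted p = 0.491). Without the scrambled control it was -0.23 and did not pass. A second *Bnip3* probe set gave 9.17 and 9.10 in knockdown lines, against 9.12, 9.76 and 9.29 in H5, the scrambled control and untransduced cells, and there the cohorts overlapped (-0.26). *Bnip3l* was 11.72 in H3 and 11.71 in H4, against 11.63, 11.80 and 11.57 in the same control lines (0.05 ± 0.08).

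*Ndrg1*, a stress-induced gene of differentiation, was 10.30 in H3 and 9.89 in H4, against 9.85 for H5, 10.36 for the scrambled control and 9.59 for untransduced cells, and its log2 fold change of 0.16 had an SE of 0.27. The blood vessel growth factor gene *Vegfa* was 8.29 in H3 and 8.31 in H4, against 8.05 for H5, 8.30 for the scrambled control and 8.29 for untransduced cells, so that H5 alone was low. *Adm*, which encodes the vasodilator adrenomedullin, was 5.91 and 5.73 in knockdown lines, against 5.70, 5.77 and 5.77 in H5, the scrambled control and untransduced cells. *Higd1a*, a mitochondrial protein gene, ranged from 5.79 to 5.93 over all lines (-0.02 ± 0.06). A second *Higd1a* probe set gave 5.20 and 5.22 in H3 and H4, against 5.30, 5.33 and 5.36 in H5, the scrambled control and untransduced cells, with both knockdown lines below all control lines (-0.12). *Car9*, the carbonic anhydrase gene often used as a hypoxia marker, stood at 5.46 for H3 and 5.41 for H4, against 5.46 for all control lines, and *Ankrd37* was 6.20 on all 5 arrays. Equal values on several arrays were common in this table: 38.4% of all genes and 4 of the 30 genes here had the same value, to the last deposited digit, on 2 or more arrays. *Car9* and *Ankrd37* had no spread over the control lines for this reason, whereas *Eno2* and *Vegfa* shared only 1 value between a pair of arrays. Without H3 the log2 fold change of *Car9* was -0.05, with no spread of its own left to test it against. Without H4 that of *Adm* was 0.17.

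Of the HIF alpha subunit genes, 1 of 2 passed. *Epas1*, which encodes HIF-2α, was 7.42 in H3 and 7.50 in H4, against 7.62 for H5, 7.69 for the scrambled control and 7.68 for untransduced cells. It fell in both knockdown lines (-0.20 ± 0.05, fold 0.871, adjusted p = 0.317) and passed under 10 of 11 alternatives, the exception being limma with trend and robust options. *Hif1a* was 10.82 in H3 and 10.88 in H4, against 10.87 for H5, 10.87 for the scrambled control and 11.02 for untransduced cells (-0.07 ± 0.07). Its cohorts overlapped. HIF alpha subunits are regulated mainly at the protein level, which was not measured here.

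**Figure D3:**
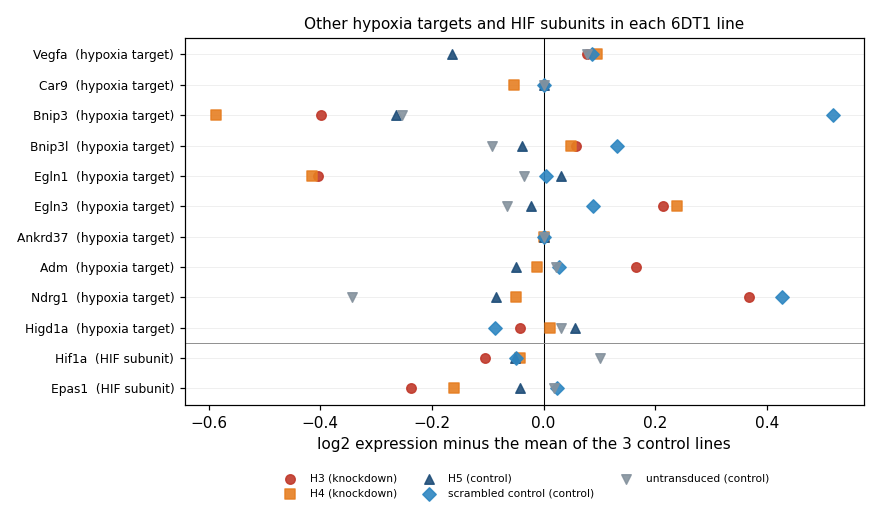
Log2 expression of each line minus the mean of the 3 control lines for the 10 other hypoxia targets and the 2 HIF alpha subunits, 1 symbol per line and gene (red and orange, knockdown lines; blue and grey, control lines). For *Egln1* and *Epas1* both knockdown lines lie left of every control line, for *Egln3* they lie right of them, and the scrambled control is the rightmost point for *Bnip3* and *Ndrg1*.

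The widest differences between control lines ran along the scrambled control. The range over the control lines was 1.31 for *Aldoc*, 0.78 for *Bnip3* and 0.77 for *Ndrg1*, and 0.0552%, 0.838% and 0.893% of all genes had a range as wide or wider. In each of the 3 genes the scrambled control was the highest control line, above the mean of H5 and untransduced cells by 1.21 for *Aldoc*, 0.78 for *Bnip3* and 0.64 for *Ndrg1*. It was the single highest control line for 17 of 28 genes of the group (60.7%), including 6 of 8 of the other hypoxia targets, against 33.3% of all genes with 1 highest control line. Without the scrambled control, *Aldoc* gave a log2 fold change of 0.83 and passed the unadjusted threshold, and *Ndrg1* gave 0.37 and did not. With 1 array for this line, its cells and its array cannot be told apart.

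**Figure D4:**
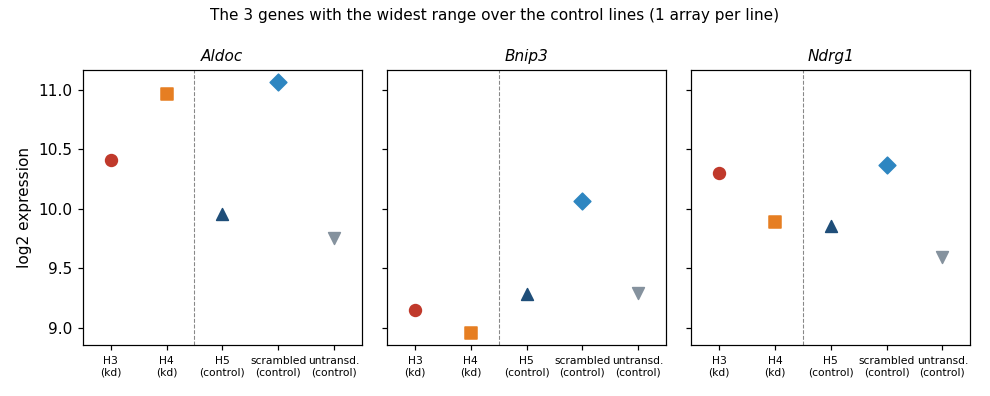
Log2 expression of *Aldoc*, *Bnip3* and *Ndrg1* in each line, 1 array per line, with the knockdown lines (kd) left of the dashed line and the control lines right of it. The scrambled control is the highest control line in all 3 panels, at 11.06, 10.06 and 10.36.

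Beyond the group, a list of 24 other genes of glucose transport, glycolysis and linked reactions held 2 that rose (8.33%) and 1 that fell (4.17%). The shares over all genes were 4.34% and 7.61%. *Fbp2*, a phosphatase of the reverse pathway, was 7.31 in H3 and 6.76 in H4, against 6.57 for H5, 6.41 for the scrambled control and 6.48 for untransduced cells (0.55 ± 0.18). *Pfkfb4*, a relative of *Pfkfb3*, fell (-0.27 ± 0.07), with 7.94 and 8.05 in H3 and H4, against 8.19, 8.31 and 8.30 in H5, the scrambled control and untransduced cells. *Pgam5*, a mitochondrial protein phosphatase rather than a glycolytic enzyme, rose by 0.21 ± 0.05. Of 17 other pyruvate and lactate genes 1 rose, *Pdk4* (0.16 ± 0.06), which like *Pdk1* encodes an inhibitor of pyruvate dehydrogenase, and 0 fell by limma's unadjusted p. *Fbp2* did not pass without H5 (0.59), the scrambled control (0.51) or untransduced cells (0.54), *Pfkfb4* without H3 (-0.21), *Pgam5* with array medians subtracted (0.16), and *Pdk4* without any 1 of the 5 lines (0.12 to 0.20).

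The pentose phosphate branch, which draws sugar phosphate from glycolysis to make NADPH and ribose, had 7 measured genes, of which 1 rose (14.3%) and 3 fell (42.9%), against 4.34% and 7.61% of all genes. *Pgd*, the second NADPH-forming dehydrogenase, was 10.48 in H3 and 10.24 in H4, against 10.79 for H5, 10.72 for the scrambled control and 11.16 for untransduced cells (-0.53 ± 0.17, fold 0.693, adjusted p = 0.357). *H6pd*, the dehydrogenase of the endoplasmic reticulum, fell (-0.45 ± 0.15), and so did the ribose phosphate isomerase gene *Rpia* (-0.41 ± 0.10). *Pgls*, the lactonase between the dehydrogenases, rose by 0.30 ± 0.07. The *Pgd* call was lost without H3 (-0.65), without H4 (-0.41) and without H5 (-0.58), and that of *H6pd* without H3 (-0.22), H5 (-0.47), the scrambled control (-0.41) or untransduced cells (-0.48). *Rpia* did not pass without H3 (-0.36) or H4 (-0.46), nor did *Pgls* (0.28 and 0.33).

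The other 16 genes of the oxygen-sensing machinery held 0 that rose and 2 that fell (12.5%) by limma's unadjusted p. Over all genes the shares were 4.34% higher and 7.61% lower. *Hif1an*, which encodes the asparaginyl hydroxylase that blocks HIF coactivator binding, was 7.57 in H3 and 7.81 in H4, against 7.95 for H5, 7.95 for the scrambled control and 8.04 for untransduced cells (-0.29 ± 0.09, adjusted p = 0.353). *Rbx1*, the RING subunit of the ubiquitin ligase that receives hydroxylated HIF alpha, was 10.19 and 10.30 in H3 and H4, against 10.46, 10.46 and 10.54 in H5, the scrambled control and untransduced cells (-0.24 ± 0.06, adjusted p = 0.303). The median over the 16 genes was -0.002. *Hif1an* did not pass without H3 (-0.17), H5 (-0.31), the scrambled control (-0.31) or untransduced cells (-0.26).

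A further 46 hypoxia targets outside the group held 5 higher and 5 lower (10.9% each), against 4.34% and 7.61% of all genes. Their median log2 fold change was 0.035, against 0.033 over all genes. *Tfrc*, the transferrin receptor gene, was 9.24 in H3 and 9.23 in H4, against 10.12 for H5, 9.73 for the scrambled control and 10.65 for untransduced cells, the largest difference among the genes named from the metabolic and hypoxia lists (-0.93 ± 0.28, fold 0.524, adjusted p = 0.352). *Stc1*, which encodes the secreted glycoprotein stanniocalcin, was 8.11 and 8.63 in H3 and H4, against 7.10, 7.86 and 7.56 in H5, the scrambled control and untransduced cells (0.86 ± 0.28, fold 1.82). *Ddit4*, an inhibitor of mTORC1 signalling, rose to 9.94 and 9.92 in H3 and H4, against 9.33, 9.63 and 9.13 in the same control lines (0.57 ± 0.16). The repressor gene *Bhlhe40* (-0.60 ± 0.18) and the VEGF receptor gene *Flt1* (-0.49 ± 0.15) fell, and in both H3 was the lowest line. *Tfrc* did not pass without H3 (-0.94), H4 (-0.93) or H5 (-0.96), and *Stc1* did not pass without H3 (1.12), H4 (0.60), H5 (0.66) or untransduced cells (0.89). *Ddit4* did not pass without H3 (0.56), H4 (0.58) or H5 (0.55), *Bhlhe40* without H3 (-0.36), the scrambled control (-0.54) or untransduced cells (-0.55), and *Flt1* without H5 (-0.51), the scrambled control (-0.49) or untransduced cells (-0.48). Without H3, *Flt1* passed at -0.25.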

How the data were processed

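RNA from 5 6DT1 lines was hybridised to 1 Affymetrix array each. The deposited values are log2 expression values, which the authors normalized in Partek Genomics Suite; Partek and RMA stand in the submitters' processing notes, with versions not given in the sources used here. RMA corrects background, quantile-normalizes probes and summarises them; no depth exists for arrays, and their number limits the precision. Of 35556 probe sets, 23410 were annotated, 21789 with 1 symbol (21698 matched to RefSeq, GRCm38.p6) and 1621 with several. For each of 19938 genes the probe set of highest mean was kept (999 genes had more than 1).

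The knockdown and control cohorts were set against each other over all genes by limma 3.58.1 (R 4.3.3) with 1.58 prior and 3 residual degrees of freedom and Benjamini-Hochberg adjustment, and the step was tested on simulated data. Alternatives were an unmoderated equal-variance test, trend and robust options, another quantile normalization, array medians subtracted, probe sets averaged, the dimmest genes left out, and each line left out. The members and lists were chosen with earlier results of these data known. All 33 members and *Arid4b* are named and, from each other list, up to 5 genes past an unadjusted p of 0.05 for which H3 and H4 lay beyond every control line, by absolute log2 fold change. *Pkm* and *Eno3* are named besides, for their steps in the pathway. Figures were drawn with matplotlib 3.10.9.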

Additional observations from a re-analysis of the deposited data

How the results depend on the processing

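With an unmoderated test in place of limma, 5 of the 10 genes of the group passed (1 higher, 4 lower), with 0 glycolytic enzymes higher and 1 lower. With array medians subtracted 1 gene was higher (1 glycolytic enzyme and 0 other hypoxia targets), and 1 glycolytic enzyme was higher with trend and robust options or without the dimmest genes. Leaving out each line in turn gave 4 to 8 genes passing, 0 to 4 higher and 2 to 6 lower, with 0 to 3 glycolytic enzymes higher, 0 to 2 lower, 0 to 1 other hypoxia targets higher and 1 to 2 lower. Where H3 or H4 was left out, the lone knockdown line was taken to vary as much as control lines do. Of the 11 alternatives, *Egln1* passed under 11, *Epas1* under 10, *Tpi1* under 9, and *Pfkfb3*, *Pgk1* and *Egln3* under 7. *Pfkl* and *Ldha* passed under 6, *Slc2a1* under 4 and *Pfkm* under 3. The direction of each of the 10 genes held under all 11 alternatives. It turned for *Hk2* with array medians subtracted (-0.01) and without H4 (-0.08), for *Pdk1* with another quantile normalization (0.0) and without H3 (0.15), for *Ndrg1* without H3 (-0.05) and without untransduced cells (-0.01), for *Higd1a* without H3 (0.01), H5 (0.01) and untransduced cells (0.0), for *Adm* without H3 (-0.01) and for *Ldhb* without H3 (0.0). Over all genes 866 were higher and 1517 lower. With array medians subtracted the counts were 509 and 2041, and with another quantile normalization 1300 and 1332. They were 603 and 1503 without the dimmest genes (4 adjusted), and 587 and 835 unmoderated (3 adjusted). Without each line in turn the highest value was 0.11 for *Ldhb*, 0.17 for *Adm* and 0.37 for *Ndrg1*, and the lowest was -0.30 for *Pdk1* and -0.06 for *Higd1a*. The causes were not tested. No paired analysis was possible because the lines carry hairpin names and share no replicate numbers across cohorts. Each line has 1 array, which limits every comparison.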
